A study of Mus musculus with 8 samples.

Results

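The TNF superfamily ligands that T cells make were examined in Treg of the bone marrow (BM-Treg) and of the spleen (SP-Treg). The members were 9 genes chosen by name, out of 38215 listed: Tnf, Lta, Ltb, Cd40lg, Fasl, Tnfsf8, Tnfsf10, Tnfsf11 and Tnfsf14. Each was found in exactly 1 row of the gene tables, and the rule that names them uses no measured value. There were 4 libraries for each tissue, which started from 15 ng of RNA of sorted FoxP3+ cells of mice 12 weeks old. The methods name B6.FoxP3-GFP mice, in which cells that express FoxP3 carry a green fluorescent protein, while the labels give the genotype as C57Bl/6, and both tissues share this background. By their labels, BM-Treg replicates 1 to 3 were made in batch 1 from females, and BM-Treg replicate 4 and every SP-Treg library in batch 3 from males. Tissue, batch and labelled sex therefore cannot be told apart except through 1 BM-Treg library. The methods, in contrast to these labels, state that the mice were female unless otherwise indicated. The labels do not say whether a library came from 1 animal or from several, and the names of the SP-Treg libraries hold number ranges that overlap with no meaning given, so that the p-values measure only the spread between these libraries.

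Ligands of the TNF superfamily are mostly made as membrane proteins that assemble into trimers, and many can be shed from the cell by proteases. They bind receptors of the TNF receptor superfamily on neighbouring cells, which either recruit TRAF adaptors and activate NF-kappaB or, for receptors with a death domain, can start apoptosis. In T cells, many of these genes are switched on after antigen receptor stimulation, so that a resting T cell usually holds little of their mRNA. In bone marrow, RANKL (Tnfsf11) is best known as the ligand that drives osteoclast formation, and TNF can act together with it.

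Ltb, Tnf and Lta lie side by side in the major histocompatibility complex on chromosome 17, at chr17:35194439-35196320 (plus strand), chr17:35199381-35202007 (minus strand) and chr17:35203165-35205351 (minus strand) of GRCm38. The cluster spans 10913 bp, with 3060 bp between Ltb and Tnf and 1157 bp between Tnf and Lta. Tnfsf14 is on the same chromosome at chr17:57189492-57194189 (minus strand), and Tnfsf8 at chr4:63831308-63861347 (minus strand). The promoters of these 5 genes are shown because they include the 4 members that differed between the tissues and the cluster neighbour, Ltb, that was not called. Each runs from 250 bases before to 50 bases after the start annotated by RefSeq (GRCm38.p6), 5′ to 3′ along the strand of the gene: Tnf at chr17:35201958-35202257, Lta at chr17:35205302-35205601, Ltb at chr17:35194257-35194556, Tnfsf8 at chr4:63861235-63861534 and Tnfsf14 at chr17:57194132-57194431. Capitals mark every match, on either strand, to the NFAT core GGAAA, the AP-1 motif TGANTCA, the NF-kappaB consensus or the TATA box TATAAA.
Tnf: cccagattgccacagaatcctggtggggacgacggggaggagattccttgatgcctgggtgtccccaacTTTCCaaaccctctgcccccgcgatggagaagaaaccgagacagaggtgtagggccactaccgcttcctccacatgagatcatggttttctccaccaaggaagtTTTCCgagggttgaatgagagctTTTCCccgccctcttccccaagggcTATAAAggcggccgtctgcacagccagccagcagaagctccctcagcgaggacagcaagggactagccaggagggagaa
Lta: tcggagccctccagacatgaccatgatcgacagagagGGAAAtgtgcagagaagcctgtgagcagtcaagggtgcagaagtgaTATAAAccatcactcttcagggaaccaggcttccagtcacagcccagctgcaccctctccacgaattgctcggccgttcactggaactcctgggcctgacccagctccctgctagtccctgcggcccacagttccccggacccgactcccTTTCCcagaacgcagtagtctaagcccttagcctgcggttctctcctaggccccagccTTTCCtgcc
Ltb: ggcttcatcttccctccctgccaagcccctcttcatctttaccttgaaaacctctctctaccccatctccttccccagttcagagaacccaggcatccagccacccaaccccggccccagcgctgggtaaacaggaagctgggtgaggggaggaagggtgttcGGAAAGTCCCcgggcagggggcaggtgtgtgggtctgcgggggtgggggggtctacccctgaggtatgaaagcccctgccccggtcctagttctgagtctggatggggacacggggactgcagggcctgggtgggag
Tnfsf8: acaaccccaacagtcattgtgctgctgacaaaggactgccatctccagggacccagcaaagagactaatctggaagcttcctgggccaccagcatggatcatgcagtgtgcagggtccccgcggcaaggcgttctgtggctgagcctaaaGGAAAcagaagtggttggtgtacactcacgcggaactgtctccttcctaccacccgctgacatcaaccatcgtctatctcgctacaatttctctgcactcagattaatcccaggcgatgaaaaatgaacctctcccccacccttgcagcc
Tnfsf14: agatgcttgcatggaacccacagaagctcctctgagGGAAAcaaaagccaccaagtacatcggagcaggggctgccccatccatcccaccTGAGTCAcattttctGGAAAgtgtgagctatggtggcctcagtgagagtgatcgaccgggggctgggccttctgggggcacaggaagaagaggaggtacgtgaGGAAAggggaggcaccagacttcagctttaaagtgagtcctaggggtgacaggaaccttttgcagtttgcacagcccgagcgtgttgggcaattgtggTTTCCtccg

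Among all 32851 promoters of this length, the NFAT core was found in 61.3%, the AP-1 motif in 7.81%, the NF-kappaB consensus in 8.46% and the TATA box in 13.6%. The core was present in 8 of the 8 members that had a promoter in the table, which did not hold Cd40lg, and the difference from all promoters was not tested. Tnf had 3 copies of the core and a TATA box at positions -29 to -24, counted from the annotated start. Lta also had 3 copies of the core, but its TATA box letters lay far from the start, at -167 to -162. The only NF-kappaB match was in Ltb, at -87 to -78, where it overlaps the core at -87 to -83. The only AP-1 match was in Tnfsf14, at -160 to -154, beside 4 copies of the core. Tnfsf8 had 1 copy of the core and none of the other motifs in this window. Such matches describe the letters of the window and do not show that a factor is bound there.

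Expected counts on genes, which are estimated numbers of reads that need not be whole, summed to between 12427136 and 21921252 per library. Of the listed genes, 13397 passed edgeR's filter on low counts, among them 9 of the 9 ligands. BM-Treg and SP-Treg were compared with edgeR's quasi-likelihood test across all these genes, and a gene was called at a Benjamini-Hochberg adjusted p under 0.05. Levels are given as CPM (counts scaled to library sizes normalised by TMM), and fold changes as log2 of BM-Treg over SP-Treg, with a median of -0.01 over all genes tested. The 6 Treg markers (Foxp3, Il2ra, Ctla4, Ikzf2, Cd4 and Cd3e) summed to between 7210 and 8560 CPM in BM-Treg, and between 7914 and 8732 CPM in SP-Treg, so that the defining transcripts of the labelled cell type were abundant in every library. In such bulk libraries, fewer cells that hold a transcript and less of it in each cell cannot be told apart.

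Of the 9 ligands, 4 were downregulated in BM-Treg (Tnf, Lta, Tnfsf8 and Tnfsf14), 0 were upregulated and 5 were not called. In this fit none was upregulated at an unadjusted p under 0.05 either, and DESeq2 and limma-voom called the same 4 lower and 0 higher. Over all genes tested, 8.75% were called, with 5.02% lower and 3.72% higher in BM-Treg, against 44.4% of the ligands. The same 4 ligands were lower in every BM-Treg library than in any SP-Treg library, a separation that 8.57% of all genes showed in this direction, 7.58% in the opposite direction and 16.2% in either. The median log2 fold change of the 9 ligands was -0.28, with 6 negative and 3 positive values. The remaining 5 ligands, Ltb, Cd40lg, Fasl, Tnfsf10 and Tnfsf11, had overlapping libraries and fold changes between -0.28 and 0.24. The plot of CPM by library shows each value.

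**Figure D1:**
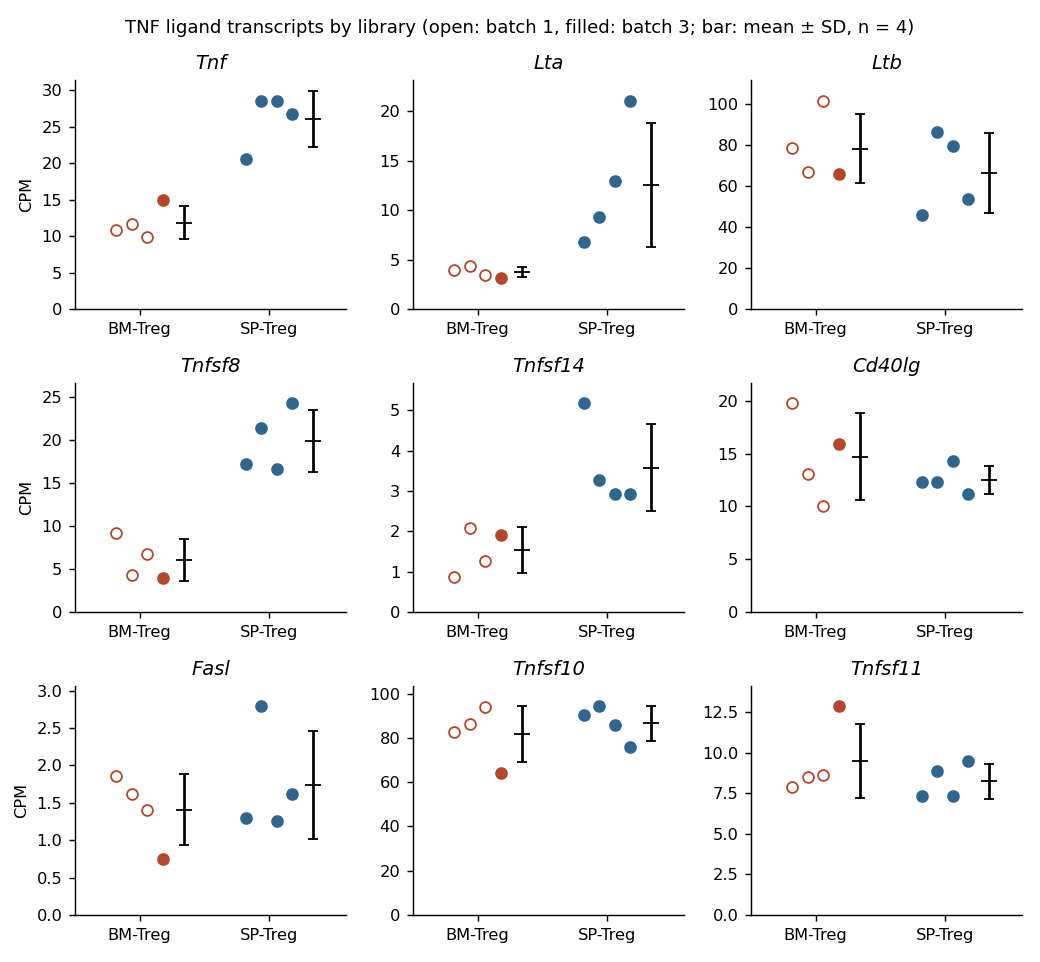
CPM of the 9 TNF superfamily ligands in each library, in panels with separate axes that start at 0; open points are batch 1, filled points batch 3, and bars give mean ± SD (n = 4). For Tnf, Lta, Tnfsf8 and Tnfsf14 every BM-Treg point lies below every SP-Treg point, and for the other ligands the points overlap.

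Tnf encodes TNF, a proinflammatory cytokine that signals through TNFR1 and TNFR2. Its level was 10.9, 11.7, 9.89 and 15.0 CPM in BM-Treg replicates 1 to 4 and 20.5, 28.6, 28.5 and 26.7 CPM in SP-Treg replicates 1 to 4. The groups did not overlap, although the BM-Treg library of batch 3 was the highest of its tissue and SP-Treg replicate 1 the lowest. Means ± SD (n = 4) were 11.9 ± 2.23 CPM for BM-Treg against 26.1 ± 3.80 CPM for SP-Treg, or 2.198-fold higher in SP-Treg. The log2 fold change was -1.14 with a standard error of 0.17 (edgeR's quasi-likelihood test, adjusted p = 0.00108). Leaving out each library in turn kept the call in 8 of 8 fits, at log2 fold changes of -1.27 to -1.06.

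Lta encodes lymphotoxin alpha, which is secreted as a homotrimer that binds the TNF receptors, or held at the cell surface in a complex with lymphotoxin beta that binds the lymphotoxin beta receptor. BM-Treg replicates 1 to 4 held 3.94, 4.35, 3.46 and 3.17 CPM of Lta, and SP-Treg replicates 1 to 4 held 6.75, 9.32, 12.96 and 21.1 CPM. The BM-Treg libraries were close to each other, whereas the SP-Treg libraries were spread widely above them. Means were 3.73 ± 0.522 against 12.5 ± 6.24 CPM, a 3.36-fold higher level in SP-Treg. The log2 fold change of Lta was -1.74 with a standard error of 0.30 (edgeR's quasi-likelihood test, adjusted p = 0.00343), and the call was kept in each of the 8 fits without a library.

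Ltb encodes lymphotoxin beta, the membrane anchor of that complex, and did not follow its neighbours. Its level was 78.7, 66.7, 102 and 65.7 CPM in BM-Treg replicates 1 to 4 and 45.8, 86.1, 79.6 and 53.6 CPM in SP-Treg replicates 1 to 4. Libraries of both tissues were interspersed. Ltb had a log2 fold change of 0.24 with a standard error of 0.21 and a 95% interval of -0.23 to 0.71, so that a drop as large as that of Tnf lies outside the interval (edgeR's quasi-likelihood test, adjusted p = 0.548). To compare the genes of the cluster directly, ratios of their expected counts were taken within each library, which do not depend on the normalisation between libraries. Tnf over Ltb was 0.0973 to 0.229 in BM-Treg and 0.332 to 0.499 in SP-Treg, without overlap (exact two-sided permutation test, p = 0.0286 and adjusted p = 0.0429 over 3 ratios). Lta over Ltb was 0.0340 to 0.0653 in BM-Treg and 0.108 to 0.393 in SP-Treg, with the same p-values from the exact permutation test. Lta over Tnf was 0.211 to 0.373 in BM-Treg and 0.326 to 0.789 in SP-Treg, and these ranges overlapped (exact permutation test, p = 0.286, adjusted p = 0.286). These 3 ratios were chosen after the values had been seen, and 0.0286 is the smallest p that 4 against 4 libraries allow. The map of the cluster places the fold changes along the chromosome.

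**Figure D2:**
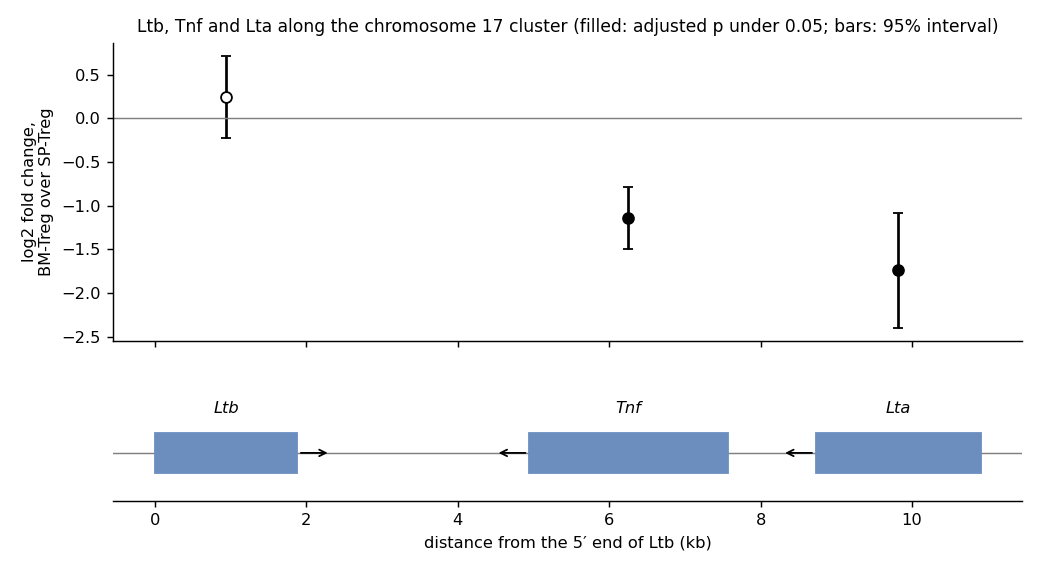
Log2 fold change of BM-Treg over SP-Treg for Ltb, Tnf and Lta (points, with 95% intervals; filled where the adjusted p is under 0.05) above the position of each gene, in kb from the 5′ end of Ltb, with arrows for the direction of transcription. Ltb, at 0.24, has an interval that spans 0, while Tnf at -1.14 and Lta at -1.74 lie wholly below it.

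Tnfsf8 encodes CD30L, the ligand of CD30, a costimulatory receptor of activated T cells. It stood at 9.20, 4.31, 6.78 and 3.92 CPM in BM-Treg replicates 1 to 4 and at 17.2, 21.4, 16.6 and 24.2 CPM in SP-Treg replicates 1 to 4. The lowest SP-Treg library lay well above the highest BM-Treg library. Mean levels were 6.05 ± 2.45 and 19.8 ± 3.61 CPM, 3.28-fold higher in SP-Treg. Tnfsf8 had a log2 fold change of -1.70 with a standard error of 0.25 (edgeR's quasi-likelihood test, adjusted p = 0.00134). The gene was called in 17 of 17 fits with changed settings or a library left out, including that with batch as a term (log2 fold change -2.34, adjusted p = 0.0227), but not with SP-Treg replicate 1 as the sole SP-Treg library, which is outside these 17 (adjusted p = 0.0534). Its receptor gene Tnfrsf8 (CD30) was downregulated as well, at 7.04 ± 1.87 CPM against 14.1 ± 2.78 CPM in SP-Treg, again without overlap. The log2 fold change of Tnfrsf8 was -0.996 with a standard error of 0.22 (edgeR's quasi-likelihood test, adjusted p = 0.0107), and was not called with batch as a term (adjusted p = 0.0547) or by limma-trend on log2(FPKM + 1) (adjusted p = 0.0645).

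Tnfsf14 encodes LIGHT, which binds the lymphotoxin beta receptor and HVEM (Tnfrsf14). It was among the scarcest ligands, with 16 to 72 expected counts per library. BM-Treg replicates 1 to 4 held 0.876, 2.08, 1.27 and 1.92 CPM of Tnfsf14, and SP-Treg replicates 1 to 4 held 5.17, 3.27, 2.93 and 2.94 CPM. The groups did not overlap, and SP-Treg replicate 1 stood apart above the other SP-Treg libraries. With means of 1.54 ± 0.564 and 3.57 ± 1.08 CPM, the log2 fold change was -1.22 with a standard error of 0.36 (edgeR's quasi-likelihood test, adjusted p = 0.0492). This call lay at the threshold: leaving out any 1 library lost it (adjusted p between 0.0564 and 0.163, the highest without SP-Treg replicate 1), and kept in 4 of the same 17 fits, while the direction held in each of the 17.

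Tnfsf11 encodes RANKL. It held 7.88, 8.52, 8.62 and 12.9 CPM in BM-Treg replicates 1 to 4 and 7.33, 8.85, 7.36 and 9.47 CPM in SP-Treg replicates 1 to 4. Apart from the higher value of BM-Treg replicate 4, the libraries of both tissues covered the same range. Tnfsf11 had a log2 fold change of 0.19 with a standard error of 0.20 and a 95% interval of -0.24 to 0.62 (edgeR's quasi-likelihood test, adjusted p = 0.617). Without BM-Treg replicate 4 it was 0.02, and in batch 3 alone, where that library is the only BM-Treg library, it was 0.66 with no test. With batch as a term, a fit that rests on that library, it was 0.64 with a standard error of 0.26 (edgeR's adjusted p = 0.212). RANKL mRNA was thus called in none of the 17 fits with changed settings or a library left out, while its fold change depended on BM-Treg replicate 4.

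Cd40lg encodes CD40 ligand, by which T cells help B cells and other antigen presenting cells. Its level was 19.8, 13.1, 10.1 and 16.0 CPM in BM-Treg replicates 1 to 4 and 12.3, 12.4, 14.3 and 11.2 CPM in SP-Treg replicates 1 to 4. BM-Treg libraries lay on both sides of the SP-Treg libraries, which were close together. Cd40lg had a log2 fold change of 0.23 with a standard error of 0.20 and a 95% interval of -0.19 to 0.65 (edgeR's quasi-likelihood test, adjusted p = 0.529). The gene is on the X chromosome, at chrX:57212143-57224042 (plus strand), and the 3 BM-Treg libraries of batch 1 are labelled as from females. The effect of this on the value was not tested.

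Tnfsf10 encodes TRAIL, which can start apoptosis through the receptor encoded by Tnfrsf10b. It was found at 82.9, 86.4, 94.0 and 64.0 CPM in BM-Treg replicates 1 to 4 and at 90.4, 94.3, 85.8 and 75.9 CPM in SP-Treg replicates 1 to 4, with overlapping groups. Tnfsf10 had a log2 fold change of -0.08 with a standard error of 0.12 and a 95% interval of -0.34 to 0.18, the narrowest of the 9 ligands (edgeR's quasi-likelihood test, adjusted p = 0.750). Its sign turned to 0.01 on the FPKM scale and to 0.02 without BM-Treg replicate 4.

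Fasl encodes Fas ligand, which triggers apoptosis through Fas. With 9 to 35 expected counts per library it was the least precisely measured ligand. BM-Treg replicates 1 to 4 held 1.86, 1.62, 1.40 and 0.752 CPM of Fasl, and SP-Treg replicates 1 to 4 held 1.29, 2.79, 1.25 and 1.61 CPM. The groups overlapped, and the log2 fold change was -0.28 with a standard error of 0.42 (edgeR's quasi-likelihood test, adjusted p = 0.735). Its 95% interval, -1.17 to 0.61, still holds changes as large as that of Tnf, so that at this depth a difference in Fasl can be neither shown nor bounded closely.

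In batch 3 alone, BM-Treg replicate 4 was set against the 4 SP-Treg libraries, which gives values without a test. The log2 fold changes of the called ligands stayed negative there, at -0.78 for Tnf, -1.96 for Lta, -2.32 for Tnfsf8 and -0.88 for Tnfsf14. With batch as a term, a fit that rests on the same library, they were -0.79, -1.98, -2.34 and -0.90, and edgeR's adjusted p was 0.107, 0.103, 0.0227 and 0.451. Tnfsf8 thus remained called and the other 3 ligands did not. The 5 ligands not called from all libraries were at -0.01 (Ltb), 0.35 (Cd40lg), -1.20 (Fasl), -0.44 (Tnfsf10) and 0.64 (Tnfsf11) with batch as a term. Their lowest adjusted p from edgeR was 0.190, for Tnfsf10. Of the 9 ligands, 5 had an unadjusted p under 0.05 in that fit. The plot of fold changes sets the values of batch 3 alone beside those of all 8 libraries.

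**Figure D3:**
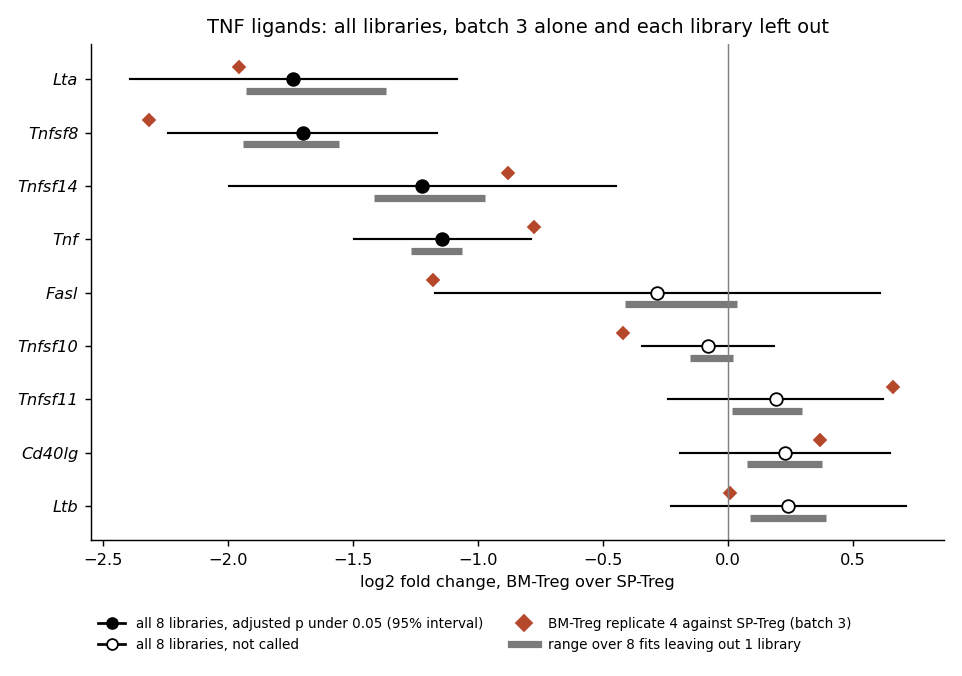
Log2 fold change of BM-Treg over SP-Treg for each ligand: circles and thin lines give all 8 libraries with the 95% interval (filled where the adjusted p is under 0.05), diamonds batch 3 alone, and grey bars the range over 8 fits that each left out a library. Lta, Tnfsf8, Tnfsf14 and Tnf lie left of 0 in all 3 measures, whereas the grey bars of Fasl and Tnfsf10 reach across 0.

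Some SP-Treg libraries held transcripts of other cell types, which also can make these ligands. The 7 B cell markers summed to between 14.0 and 19.2 CPM in BM-Treg and between 14.4 and 149.6 CPM in SP-Treg, with 1 of 7 called (Ebf1, lower in BM-Treg). Of the 2 CD8 T cell markers, 1 was called lower in BM-Treg (Cd8a), and their sum was 10.9 to 12.6 CPM for BM-Treg against 13.2 to 41.0 CPM in SP-Treg. The 4 NK cell markers reached at most 0.481 CPM for BM-Treg against 4.54 CPM in SP-Treg, and the 4 plasma cell markers at most 0.556 and 26.6 CPM. All genes of both these lists were below the filter and were not tested. Their sums were higher in every SP-Treg library than in any BM-Treg library, from 0.790 CPM for NK cell and from 0.575 CPM for plasma cell markers. The 8 erythroid markers ranged from 16.9 to 35.2 CPM in BM-Treg and, more widely, from 2.59 to 486 CPM in SP-Treg, and the 7 neutrophil markers from 1.31 to 9.85 and from 0.215 to 16.9 CPM. Monocyte markers (137 to 247 and 99.8 to 157 CPM, 6 genes), pDC markers (41.8 to 52.6 and 17.4 to 55.4 CPM, 5 genes) and ILC3 markers (13.8 to 50.3 and 17.8 to 24.7 CPM, 4 genes) held no called gene. The first of these sums was mostly Ccr2 (123 to 232 and 80.8 to 137.5 CPM) and the second mostly Ccr9 (28.9 to 39.6 and 8.76 to 41.7 CPM), which T cells can express too, while Csf1r and Adgre1 reached at most 3.34 and 0.558 CPM and Siglech 0.821 CPM in any library. Osteoblast and stroma markers, whose cells can make RANKL in bone, summed to 1.25 to 2.84 CPM for BM-Treg against 3.59 to 4.09 CPM in SP-Treg over 7 genes, and Sp7 was at 0 in all libraries. In these lists, Sp7 was the only marker at 0 throughout. The part of these transcripts in the ligand levels was not tested.

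SP-Treg replicate 1 had the lowest B cell sum of its tissue (14.4 CPM), within the range of BM-Treg, and also the lowest erythroid (2.59 CPM) and neutrophil (0.215 CPM) sums. Its CD8 T cell (13.2 CPM), NK cell (0.790 CPM) and plasma cell (0.575 CPM) sums were the lowest of SP-Treg but above every BM-Treg library. Its ILC3 (24.7 CPM) and osteoblast and stroma (4.09 CPM) sums were the highest of SP-Treg. In this library Tnf was at 20.5 CPM, Lta at 6.75 CPM, Tnfsf8 at 17.2 CPM and Tnfsf14 at 5.17 CPM. That all 4 lay above every BM-Treg library follows from the separation of the tissues already given, and is no test of transcripts from other cells. With it as the sole SP-Treg library, an alternative chosen after seeing the data in which the lone sample is assumed to vary like the BM-Treg libraries, the log2 fold changes were -0.80 for Tnf, -0.85 for Lta, -1.50 for Tnfsf8 and -1.75 for Tnfsf14. In that fit edgeR's adjusted p was 0.112, 0.245, 0.0534 and 0.0852, so that none of the 4 was called, while 5 of the 9 ligands had an unadjusted p under 0.05. The fifth of these was Ltb, which was higher in BM-Treg in this fit (log2 fold change 0.77, edgeR's adjusted p = 0.106).

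Levels of different ligands were compared as FPKM, which divide by transcript length. Ltb was the most abundant ligand in both tissues, at 73.7 ± 16.8 FPKM in BM-Treg and 60.9 ± 15.1 FPKM in SP-Treg (SD, n = 4), well apart from the next. In BM-Treg it was followed by Tnfsf10 (17.7 FPKM), Cd40lg (12.8 FPKM), Tnf (7.95 FPKM), Tnfsf11 (4.46 FPKM), Lta (2.93 FPKM), Tnfsf8 (1.67 FPKM), Tnfsf14 (0.880 FPKM) and Fasl (0.783 FPKM). Of these neighbours, the ranges of Tnf and Tnfsf11 and those of Tnfsf11 and Lta were separate, and the other pairs overlapped. In SP-Treg the order after Ltb was Tnfsf10 (17.5 FPKM), Tnf (16.4 FPKM), Cd40lg (10.4 FPKM), Lta (9.26 FPKM), Tnfsf8 (5.19 FPKM), Tnfsf11 (3.73 FPKM), Tnfsf14 (1.99 FPKM) and Fasl (0.908 FPKM). Here Tnf and Cd40lg, Tnfsf11 and Tnfsf14, and Tnfsf14 and Fasl were separate, and the remaining neighbours overlapped. RANKL mRNA thus ranked above Lta and Tnfsf8 in BM-Treg and below both by mean in SP-Treg, where its range overlapped that of Tnfsf8. Only 4 of the 9 ligands held the same rank in both tissues.

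The summed FPKM of the 9 ligands was 123 ± 16.7 in BM-Treg and 126.3 ± 14.1 in SP-Treg, with overlapping ranges, and Ltb was its largest part. Within this sum the share of Ltb was 59.5% ± 5.51 in BM-Treg and 47.7% ± 6.71 in SP-Treg, and the lowest BM-Treg share (55.8%) was just above the highest SP-Treg share (54.7%). Shares of a sum are not independent, and lower shares of other ligands raise that of Ltb. The level of Ltb itself overlapped and was not called (log2 fold change 0.24, edgeR's adjusted p = 0.548). Tnf made up 6.64% ± 1.71 in BM-Treg and 13.1% ± 0.838 in SP-Treg, Lta 2.41% ± 0.496 and 7.46% ± 3.94, and Tnfsf8 1.33% ± 0.460 and 4.16% ± 0.935. The shares are set out by library in the plot of ligand composition.

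**Figure D4:**
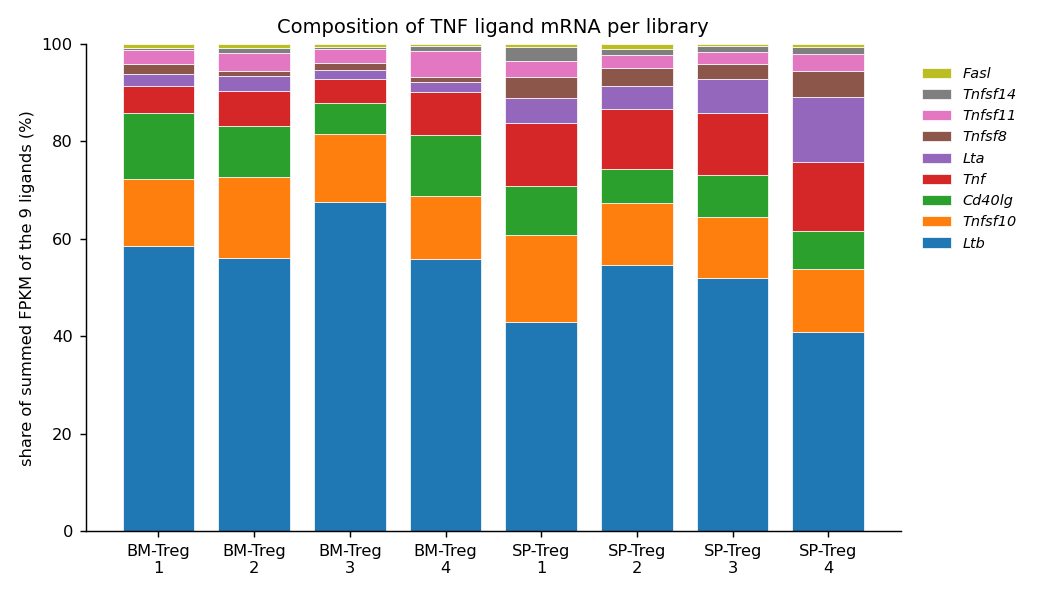
Share of each ligand in the summed FPKM of the 9 ligands (%), as a stacked bar for each BM-Treg and SP-Treg library. Ltb fills 55.8% to 67.6% of the bars of BM-Treg and 41.0% to 54.7% of those of SP-Treg, where the segments of Tnf, Lta and Tnfsf8 are wider.

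Most ligands had a single transcript in the tables, so that their counts could not be split. Tnf had 2, Tnf-201 and Tnf-202, which has 3 exons in place of the 4 of Tnf-201. The share of Tnf-202 in the expected counts of Tnf was 11.2%, 29.8%, 53.1% and 0% in BM-Treg replicates 1 to 4 and 22.8%, 6.55%, 1.65% and 12.7% in SP-Treg replicates 1 to 4. These shares ranged widely within both tissues and overlapped, with a difference of 12.6 percentage points (exact two-sided permutation test, p = 0.4, adjusted p = 0.4). The transcripts overlap each other, and such shares are uncertain estimates, so that the decrease of Tnf was read from the gene as a whole. Ltb had 3 transcripts, of which Ltb-201 took 87.4% ± 2.13 in BM-Treg and 80.8% ± 6.09 in SP-Treg. Tnfsf10-201 took at least 97.6% of the counts of Tnfsf10 in every library. No other listed gene overlapped any of the 9 ligands.

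Genes of the ligands' pathway were described by lists, each read against the median of -0.01 over all genes. Of the 10 receptors, 6 passed the filter, with 1 called lower (Tnfrsf8) and a median log2 fold change of -0.30. Limma-voom called 1 receptor as well, while DESeq2 called 3, with Tnfrsf1b lower (adjusted p = 0.0481) and Tnfrsf1a higher (adjusted p = 0.0328) beside Tnfrsf8. Tnfrsf1b, which encodes TNFR2, was the most abundant of them by CPM at 546 ± 96.8 in BM-Treg and 789 ± 250 in SP-Treg, with a log2 fold change of -0.53 that was not called (edgeR's quasi-likelihood test, adjusted p = 0.135). Tnfrsf1a, which encodes TNFR1, had 15.5 ± 1.62 CPM for BM-Treg against 10.6 ± 2.27 CPM in SP-Treg (log2 fold change 0.55, edgeR's adjusted p = 0.0686). Its libraries did not overlap between the tissues, nor did those of Fas, at 9.44 ± 1.34 and 13.1 ± 1.19 CPM (log2 fold change -0.47, edgeR's adjusted p = 0.0959). The TRAIL receptor Tnfrsf10b had a log2 fold change of 0.35 (13.2 and 10.4 CPM, edgeR's adjusted p = 0.248), and Tnfrsf14, the receptor of LIGHT, of -0.14 (5.75 and 6.37 CPM, edgeR's adjusted p = 0.798). Ltbr, Cd40, Tnfrsf11a (RANK) and Tnfrsf11b (osteoprotegerin, the decoy receptor of RANKL) did not pass the filter, with at most 1, 32, 9 and 1 expected counts in any library. Treg thus held mRNA of the receptors of TNF, TRAIL, Fas ligand and CD30L, and little or none of the receptors of lymphotoxin beta and RANKL.

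Among the other ligands of the superfamily, 1 of 9 passed the filter, Tnfsf9 (4-1BBL), at 2.04 and 2.505 CPM in BM-Treg and SP-Treg, and it was not called (log2 fold change -0.28, edgeR's adjusted p = 0.640). Of 8 genes for processing and shedding, 7 were tested and 0 were called by edgeR, DESeq2 or limma-voom, with a median of 0.28 and 1 gene (Furin) at an unadjusted p under 0.05. They include Adam17, which sheds TNF (log2 fold change -0.17, edgeR's adjusted p = 0.403), and Adam10, which sheds Fas ligand (log2 fold change -0.28, edgeR's adjusted p = 0.229). The 13 receptor adaptors and death signalling genes had a median of -0.08, and the only call was Cflar, which encodes the caspase-8 inhibitor c-FLIP and was downregulated (194 ± 21.5 against 287 ± 44.4 CPM, log2 fold change -0.56, edgeR's adjusted p = 0.0104). That call was lost with batch as a term (log2 fold change -0.72, adjusted p = 0.0798) and by limma-trend on log2(FPKM + 1), where the log2 fold change was -0.16 (adjusted p = 0.575).

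The 7 genes listed for control of the decay of ligand mRNA had the highest median, 0.39, with 2 called higher and 0 lower. Of the 5 not called, Zfp36 (log2 fold change 0.66) and Zc3h12a (0.44) had positive values. Rc3h1 (-0.36), Rc3h2 (-0.23) and Elavl1 (-0.20) had negative ones. Zfp36l2, which binds AU-rich elements and promotes mRNA decay, reached 389 ± 34.6 CPM for BM-Treg against 151 ± 11.9 CPM in SP-Treg (log2 fold change 1.37 with a standard error of 0.10, edgeR's adjusted p = 4.95e-06), and was still called with batch as a term (adjusted p = 0.00186). Its relative Zfp36l1 was at 721 ± 94.3 and 549.8 ± 51.9 CPM (log2 fold change 0.39, edgeR's adjusted p = 0.0482), a call that was kept in 1 of 8 fits without a library. Of the 10 inducers of ligand transcription, 2 were called, both lower in BM-Treg, and the median was -0.13. DESeq2 and limma-voom each called 1 inducer higher and 2 lower. Fos was higher in every BM-Treg library than in any SP-Treg library, at 65.7 ± 24.5 and 24.3 ± 10.8 CPM. It was not called (log2 fold change 1.43, edgeR's adjusted p = 0.0712). Rel, which encodes the NF-kappaB subunit c-Rel, reached 82.8 ± 6.55 CPM for BM-Treg against 142 ± 16.8 CPM in SP-Treg (log2 fold change -0.78 with a standard error of 0.11, edgeR's adjusted p = 0.000909), and was called in each of 8 fits without a library. Nfkb1, which encodes the subunit p50 and its precursor, was downregulated too (152 ± 4.49 against 191 ± 17.8 CPM, log2 fold change -0.33, edgeR's adjusted p = 0.0454) and was called in 1 of those 8 fits. Over the 6 lists, 44 of 57 genes were tested, with 2 called higher, 4 called lower and 38 not called, as the plot of the pathway shows. That is 13.6% of those tested, beside 8.75% of all genes.

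**Figure D5:**
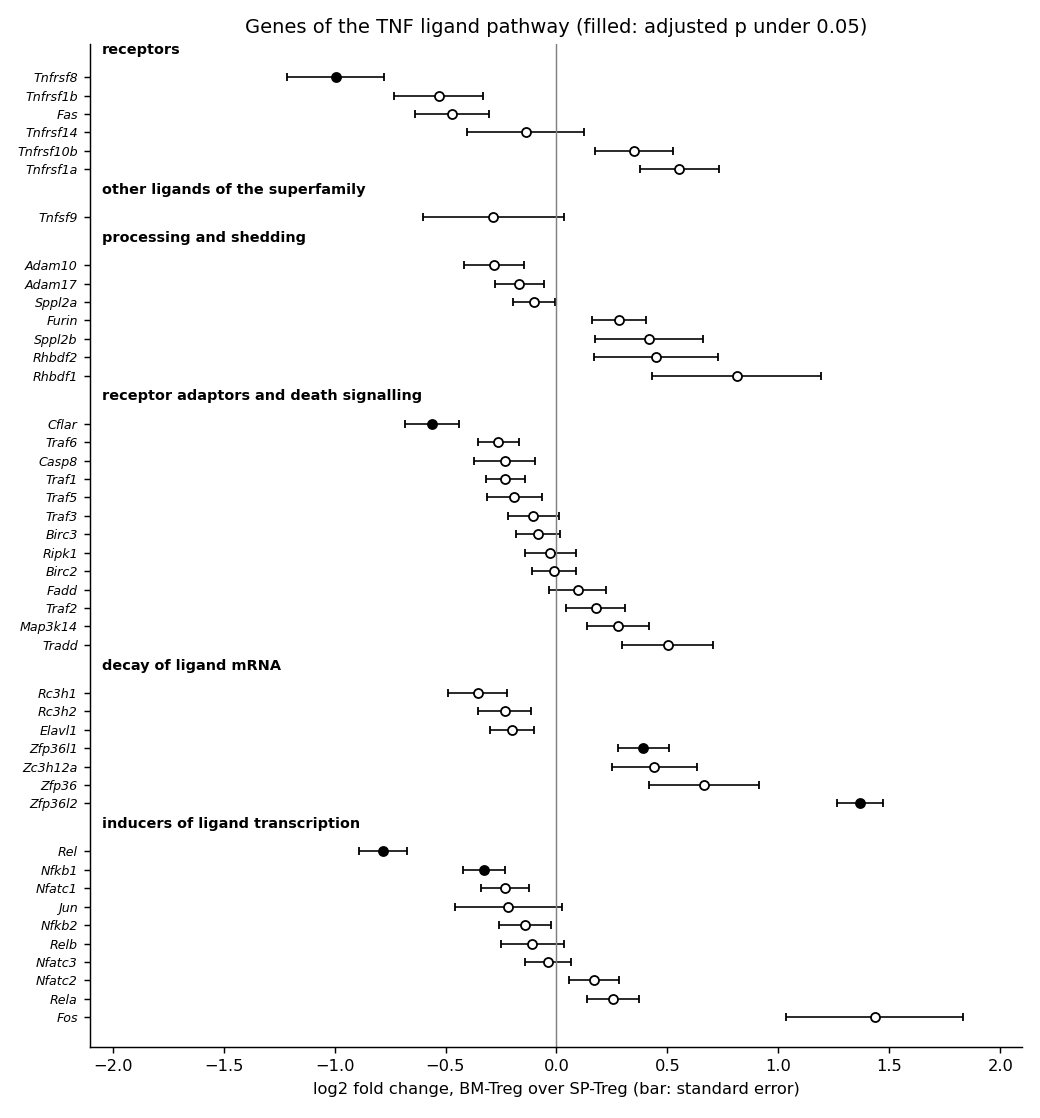
Log2 fold change of BM-Treg over SP-Treg with its standard error for the 44 tested genes of the 6 pathway lists, grouped by list and filled where the adjusted p is under 0.05. Filled points left of 0 are Tnfrsf8, Cflar, Rel and Nfkb1, and filled points right of 0 are Zfp36l1 and Zfp36l2.

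For each ligand, the gene with the most similar pattern over the 8 libraries was found as the smallest root mean square difference of centred log2 CPM among 8555 genes, as a description that includes the difference between the tissues. For Tnf it was Mcoln3 (0.160), for Lta Nsg2 (0.290), for Ltb Pex6 (0.161), for Cd40lg Macf1 (0.0786) and for Fasl Glb1l (0.234). Tnfsf8 was closest to Tcf7 (0.286), which encodes the T cell factor TCF-1 and was also downregulated in BM-Treg, from 180.5 CPM in SP-Treg to 68.4 CPM (log2 fold change -1.40, edgeR's quasi-likelihood test, adjusted p = 0.000900). Tnfsf14 was closest to St13 (0.247), which was downregulated too (log2 fold change -1.30, edgeR's adjusted p = 0.00163). So was Mcoln3 (log2 fold change -1.02, edgeR's adjusted p = 0.00568). Nsg2 was not called (log2 fold change -1.35, edgeR's adjusted p = 0.0630). Tnfsf10 and Tnfsf11 varied too little between libraries, with an SD under 0.3, to be given a closest gene.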

How the data were processed

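RNA from 4 BM-Treg and 4 SP-Treg libraries had been amplified without molecular identifiers and sequenced. The authors deposited expected counts and FPKM per gene and per transcript. The submitters' processing notes name cutadapt 1.9, STAR 2.5.2a, RSEM 1.2.30 and GRCm38, without their order. Columns were matched to libraries by name, and no 2 libraries of a tissue were duplicates (chi-square per degree of freedom of 14.6 to 88.5).

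Expected counts were rounded, filtered with edgeR's filterByExpr (13397 of 38215 genes kept) and normalised by TMM. The comparison used the quasi-likelihood test of edgeR, robust and without covariates, since the study's methods name no test for the RNAseq. Adjustment was over all genes tested. Standard errors are the log2 fold change over the root of the F statistic, and 95% intervals use the t distribution. Exact permutation tests were two-sided. The procedure was also tested on simulated counts. Versions were edgeR 4.0.16, DESeq2 1.42.0 and limma 3.58.1 under R 4.3.3.

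Depth was 12427136 to 21921252 expected counts per library, and counting errors were not given separately from the spread between libraries. Promoters were read from a RefSeq table, which held 8 of the 9 ligands. All 126 entries of the gene and marker lists matched a gene. Jchain, Mzb1, Adgre1, Hbb-bs and Hbb-bt were matched although no row held these symbols, and the symbol Ebf1 had 2 rows. The members, lists and tests were chosen with earlier results of these data known. All ligands and receptors were named, and of the other lists the genes called. The ratios within the cluster, and Adam10, Adam17, Furin, Tnfsf9, Fos and the uncalled genes of the mRNA decay list, were chosen after values were seen. Alternatives were other size factors, DESeq2, limma-voom, limma-trend on FPKM with pseudocounts of 1 and 0.1, other filters, batch, a block and left-out libraries.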

Additional observations from a re-analysis of the deposited data

Results flagged for a closer look

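Dixon's test was applied to 64 groups of 4 libraries, for the levels of the ligands, the receptors tested, the other called pathway genes, the Tnf-202 share and the marker sums. In 6 of the groups a library stood apart, while chance alone sets apart about 1 in 20 groups. Among the 18 groups of ligand levels, 2 had such a library. Tnfsf11 (RANKL) was 12.9 CPM in BM-Treg replicate 4, far above the next BM-Treg library at 8.62 CPM. Tnfsf14 (LIGHT) was 5.17 CPM in SP-Treg replicate 1, above the next SP-Treg library at 3.27 CPM. Zfp36l1 was 862 CPM in BM-Treg replicate 3, above the next at 690.0 CPM.

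The summed ILC3 markers were 50.3 CPM in BM-Treg replicate 4 and at most 17.7 CPM in the other BM-Treg libraries. In the same library the osteoblast and stroma markers summed to 2.84 CPM, with 1.48 CPM as the next value. BM-Treg replicate 4 is also the library with the highest Tnfsf11 level and the only BM-Treg library of batch 3. The part of these transcripts in the level of Tnfsf11 was not tested. The summed B cell markers were 149.6 CPM in SP-Treg replicate 2, against 32.8 CPM in the next SP-Treg library, and their part in the ligand levels of that library was not tested.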

How the results depend on the processing

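Tnf, Lta, Tnfsf8 and Tnfsf14 were lower in BM-Treg in every alternative run, among them SP-Treg replicate 1 as the sole SP-Treg library, chosen after seeing the data. Tnf and Lta kept their calls in 16 of 17 fits other than that last one, the exception being batch as a term. Over all genes, 1172 were called, and 727 (456 higher, 271 lower) on log2(FPKM + 1), 701 (436 higher, 265 lower) on log2(FPKM + 0.1), 258 (111 higher, 147 lower) with batch as a term, 683 (293 higher, 390 lower) with SP-Treg replicate 1 as the sole SP-Treg library, and 690 to 1048 with a library left out, the lowest without BM-Treg replicate 2. Higher genes were 42.6% of the calls, against 62.7% and 62.2% on FPKM with the larger and smaller pseudocount. They were 51.3% with at least 10 counts in every library. Of the ligands, 1 was called with batch as a term, 3 in each fit without a library, and 0 by edgeR with SP-Treg replicate 1 as the sole SP-Treg library, where 5 had an unadjusted p under 0.05. Of the pathway genes, 6 were called, 2 with batch as a term and 4 to 6 without a library. The cause of these shifts was not tested.

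Signs turned for Ltb with batch as a term (-0.011), for Fasl without SP-Treg replicate 2 (0.034, with -0.41 as the lowest value without a library) and with SP-Treg replicate 1 as the sole SP-Treg library (0.14), for Tnfsf10 on FPKM (0.0095 and 0.0096 with the larger and smaller pseudocount) and without BM-Treg replicate 4 (0.020, lowest -0.15), and for Tnfrsf14 without BM-Treg replicate 4 (0.038, lowest -0.34). None of these was called. The number of ligands at the same rank in both tissues stayed at 4 with median FPKM and with FPKM rescaled within each library. The order itself was not compared between these settings. The mean Tnf-202 share stayed higher in BM-Treg, by 13.1 points as a share of FPKM and by 2.74 to 20.4 points without a library. With 3 against 4 libraries the smallest p of the exact permutation test is 0.0571, so that fits without a library could not have called a difference. Replicate numbers did not pair the libraries: deviations of libraries with the same number correlated at -0.11, 0.06, -0.18 and 0.04, and BM-Treg replicates 2 and 4 correlated best with their own number while 1 and 3 did not. With the replicate block, 948 genes, 3 ligands and 7 pathway genes were called, and Tnfsf14 (adjusted p = 0.106) and Nfkb1 (adjusted p = 0.0657) were not. Fasl and Tnfsf14 had the fewest counts of the ligands, at 9 to 35 and 16 to 72 per library.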
